A study of Homo sapiens with 6 samples.

Results

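The genes described here are those of the major histocompatibility complex (MHC) class II pathway and its transcriptional regulators, chosen by symbol: CIITA, RFX5, CD74, HLA-DMA, HLA-DMB, HLA-DRA, HLA-DRB1, HLA-DPA1 and HLA-DQA1. Of these 9 genes, 8 had a row among the 29889 genes of the deposited count table, and HLA-DQA1 had none, so its expression was not analysed here. RNA was sequenced from A549, a human lung adenocarcinoma cell line, in 3 libraries transfected with a pIRES-hrGFP-1a plasmid carrying CELF6 (CELF6-OE) and 3 transfected with the empty plasmid (Control). CELF6 is an RNA-binding protein of the CELF family. Both groups were transfected with a lipid reagent and harvested after 48 h. Plasmid uptake was not compared between them. The transfection was transient, in 1 cell line and at 1 time point.

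MHC class II molecules are pairs of an alpha and a beta chain that carry peptides to the cell surface for CD4+ T cells. Dendritic cells, B cells and macrophages make them constitutively, and many epithelial cells make them after exposure to interferon gamma. CIITA, a co-activator that does not bind DNA itself, switches the genes on by binding to a complex of RFX, CREB and NF-Y proteins assembled on a conserved promoter module. New alpha and beta chains bind CD74, the invariant chain, which blocks the peptide groove and steers the complex to endosomes. Cathepsins degrade CD74 there, and HLA-DM, a dimer of the HLA-DMA and HLA-DMB products, exchanges the remaining fragment for a peptide.

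The promoter module is shown because CIITA acts through it. By the letters searched here, only some of the class II genes held it. Promoters covering 250 bases before the start site came from RefSeq on GRCh38.p14 and represent the reference genome, not A549. Of the 9 genes, 7 had an entry, and CIITA and HLA-DRA had none. The letters searched, on both strands, were TGATGA, from the 3′ end of the X box that the RFX and CREB proteins contact, and ATTGG, the core of the Y box bound by NF-Y, which reads CCAAT on the other strand. These motifs and the spacing between them were chosen after the sequences had been seen. The stretches below run 5′ to 3′ on the strand of the gene, with 15 bases on either side, and capitals mark both elements.
CD74: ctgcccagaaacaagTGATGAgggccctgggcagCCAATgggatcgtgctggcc
HLA-DMA: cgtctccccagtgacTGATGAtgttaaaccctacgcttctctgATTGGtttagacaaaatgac
HLA-DRB1: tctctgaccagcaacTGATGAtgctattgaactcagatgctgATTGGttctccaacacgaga
HLA-DOB: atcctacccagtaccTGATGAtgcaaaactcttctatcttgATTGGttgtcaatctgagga

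All 4 stretches are on the minus strand of GRCh38.p14. The CD74 stretch is chr5:150412944-150412997, with 13 bases between the elements, and it overlaps the 5′ end of the gene as annotated in GENCODE v44. The HLA-DMA stretch is chr6:32953157-32953219, with 22 bases between them, and lies within the annotated gene. The HLA-DRB1 stretch is chr6:32589875-32589936, with 21 bases between them, upstream of the annotated gene. The HLA-DOB stretch is chr6:32817081-32817141, with 20 bases between them, within the annotated gene. HLA-DOB, a further class II chain gene, is included because its counts are described below.

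TGATGA was found in 9.27% of all 35116 RefSeq promoters of this length, ATTGG in 32% and the pair in order, 10 to 40 bases apart, in 0.527%. Among the 7 genes with an entry, the pair was found in CD74, HLA-DMA and HLA-DRB1. HLA-DMB held TGATGA at -82 to -77 from the start and the reverse complement of ATTGG at -22 to -18, farther apart than the spacing searched. HLA-DPA1, with 2 entries, held neither element, while HLA-DQA1 and the first of 3 RFX5 entries held ATTGG or its reverse complement without TGATGA. Of 7 further class II chain genes, all with an entry, HLA-DOB and HLA-DRB5 held the pair. HLA-DOA, HLA-DPB1, HLA-DQB1, HLA-DQA2 and HLA-DQB2 held ATTGG without TGATGA. A separate search for the core of the interferon-stimulated response element, a GAAA followed after any 2 bases by another GAAA, found it in the second RFX5 entry and in no other gene named in this paragraph, against 3.02% of all promoters. TTCNNNGAA, the core of the gamma-activated site, was found in HLA-DQA1 and HLA-DQB2, and in 6.57% of all promoters. Such a match describes the letters in a window and does not show that a protein binds there.

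**Figure D1:**
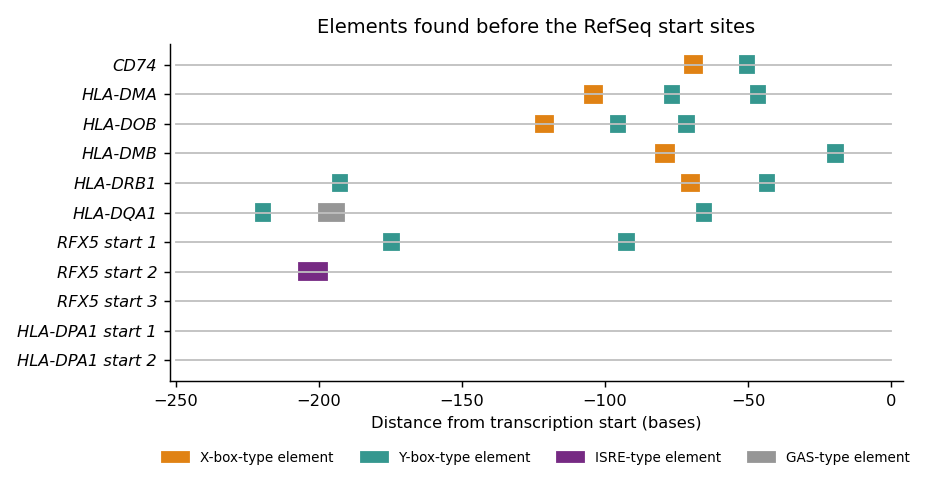
Position of each element in bases from the RefSeq start site (x axis) for the members with a promoter entry and HLA-DOB (y axis; genes with several entries have a line for each). CD74, HLA-DMA, HLA-DOB and HLA-DRB1 have an X-box-type element followed by a Y-box-type element, with 13 to 22 bases between them.

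CELF6 had 18646, 20789 and 11571 counts in the CELF6-OE libraries and 0 in each Control library, as the labels state. Total counts were 33748328 to 35413404 per library in CELF6-OE and 36422617 to 37920700 in Control. At these depths a count of 0 allows up to 3 counts, which is 0.0791 to 0.0889 on the CPM scale, and such limits cover counting error only. The keratins among the epithelial markers were high in these cells, and most leukocyte markers were low. The summed level of 6 epithelial markers (KRT7, KRT8, KRT18, KRT19, EPCAM and CDH1) was 5041 to 5793 FPKM (fragments per kilobase of transcript, scaled to library size) in CELF6-OE and 6177 to 7029 in Control. KRT7, KRT8 and KRT18 made up nearly all of this sum. EPCAM had a mean of 1.03 FPKM in CELF6-OE and 1.34 in Control, and CDH1 3.58 and 10.8. EPCAM was thus below the leukocyte marker CD14, at 3.8 and 3.32. Of 17 leukocyte markers, 12 had a row, and 6 of these stayed under 10 counts in every library. PTPRC and MS4A1 had at most 2 counts in any library, while CD14 had 225 to 310, ITGAX 54 to 109 and CD79A 12 to 24. The summed leukocyte level was 4.23 to 5.7 FPKM in CELF6-OE and 4.09 to 4.77 in Control, and without CD14 it was 0.94 to 1.17 against 1.07 to 1.46. By the test described below, 1 of the 12 leukocyte markers was called down-regulated, ITGAX, with a log2 fold change of -0.69 ± 0.19 (SE). Of the 6 epithelial markers 1 was, CDH1, with -1.63 ± 0.0901, beside 4.06% of all genes. By an adjusted p under 0.05 at any fold, 4 of the 6 epithelial markers were lower, beside 7.47% of all genes. Besides CDH1 these were KRT8 (-0.48), KRT18 (-0.36) and KRT19 (-0.23). The part of these markers in the values below was not tested.

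Of the 8 measured genes, 4 were near zero in both groups. HLA-DRA, HLA-DRB1, HLA-DPA1 and CIITA had fewer than 10 counts in each of the 6 libraries, so RNA of these class II alpha and beta chains and of CIITA was at the edge of detection. CD74, HLA-DMA, HLA-DMB and RFX5 reached 10 counts or more. In the Control libraries the order of levels per transcript length was RFX5 at 17.2 ± 0.98 FPKM (SD, n = 3), CD74 at 6.61 ± 0.967, HLA-DMA at 3.19 ± 0.323 and HLA-DMB at 1.44 ± 0.655. The ranges of neighbours in that order did not overlap. In CELF6-OE the order was RFX5 at 12.6 ± 0.702 FPKM, HLA-DMA at 2.12 ± 0.618, HLA-DMB at 1.25 ± 0.332 and CD74 at 0.137 ± 0.0603, again without overlap between neighbours. CD74 thus stood above both HLA-DM genes in every Control library and below both in every CELF6-OE library.

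**Figure D2:**
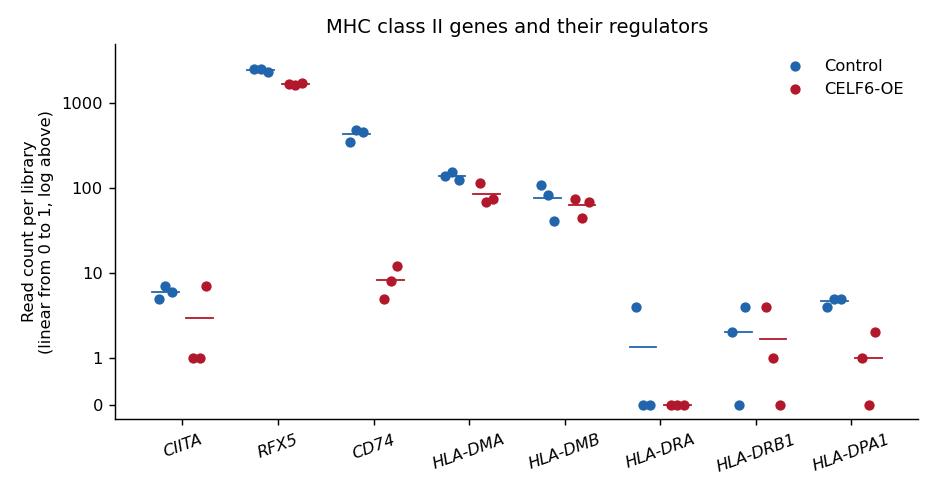
Read counts (y axis, linear from 0 to 1 and logarithmic above) of the 8 genes with a row, with a point for each library and a bar at the mean of the 3 CELF6-OE or 3 Control libraries. CD74 has 349 to 481 counts in Control and 5 to 12 in CELF6-OE, and CIITA, HLA-DRA, HLA-DRB1 and HLA-DPA1 lie under 10 counts throughout.

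To find whether CELF6-OE changed these genes, every gene with at least 1 count was tested with edgeR's quasi-likelihood test. A gene was called a differentially expressed gene (DEG) where its p was under 0.01 and its level differed at least 1.5-fold, the thresholds of the study's methods. Of the 8 genes, CD74 and HLA-DMA were called down-regulated, or 2 of 8, beside 4.06% of all 29889 genes. None was called up-regulated, beside 1.08% of all genes. The shares over all genes, here and elsewhere, include 12759 genes with fewer than 10 counts in every library. All 8 had a log2 fold change below 0, as did 14455 of all genes, but 4 of the 8 had fewer than 10 counts in every library. The signs of HLA-DMB and HLA-DRB1 changed when certain libraries were left out. By the second criterion, a Benjamini-Hochberg adjusted p under 0.05 at any fold, 3 of 8 were lower (CD74, HLA-DMA and RFX5) beside 7.47% of all genes, and 0 of 8 were higher beside 4.36%. In scaled counts, the highest CELF6-OE library was below the lowest Control library for CD74, HLA-DMA, HLA-DPA1 and RFX5, beside 12.7% of all genes. The median log2 fold change of the 8 genes was -0.76, or -0.56 with HLA-DRA, which was at 0 in CELF6-OE, set at its bound, and the median of all genes was 0.02. The RNA came from whole cultures, so fewer cells that express a gene and less RNA per cell cannot be told apart.

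CD74, the invariant chain and also a surface receptor for the cytokine MIF, fell in CELF6-OE cells by more than any other of these genes. The gene (ENSG00000019582) lies at chr5:150401637-150412969 on the minus strand. It had 349, 481 and 464 counts in Control replicates 1 to 3 and 5, 8 and 12 in CELF6-OE replicates 1 to 3. The lowest Control library therefore held many times the counts of the highest CELF6-OE library, and the groups were far apart. In FPKM the Control libraries were at 5.5, 7.29 and 7.03 and the CELF6-OE libraries at 0.08, 0.13 and 0.2. The level was 48.7-fold lower after CELF6-OE, and the log2 fold change was -5.61 ± 0.21 (SE; 95% interval -6.02 to -5.20). The adjusted p of edgeR's quasi-likelihood test was 2.5e-154 over all genes and 3.8e-07 over the genes kept by a filter on low counts, whose fit has a finite number of prior degrees of freedom. The largest adjusted p over the alternatives was 0.00312, and CD74 was called down-regulated in all 17 of them. An exact permutation test of the FPKM values gave p = 0.1, the smallest that 3 against 3 libraries can give. Within libraries, CD74 counts were 253%, 312% and 368% of the HLA-DMA counts in Control and 4.35%, 11.6% and 16.2% in CELF6-OE, a ratio that library scaling cannot change.

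HLA-DMA and HLA-DMB encode the alpha and beta chains of the peptide exchanger HLA-DM, and they neighbour each other on chromosome 6. HLA-DMA (ENSG00000204257, chr6:32948613-32969094, minus strand) had 138, 154 and 126 counts in Control and 115, 69 and 74 in CELF6-OE. CELF6-OE replicate 1, at 2.82 FPKM, lay just below Control replicate 3, at 2.84, and the other 2 CELF6-OE libraries, at 1.66 and 1.87, lay clearly lower. HLA-DMA was called down-regulated, 1.54-fold lower with a log2 fold change of -0.63 ± 0.17 (95% interval -0.95 to -0.30). In edgeR's quasi-likelihood test the adjusted p was 0.00276 over all genes, 0.0505 over the filtered genes and at most 0.219 over the alternatives, and it was under 0.05 in 10 of 17. The fold was close to the threshold of 1.5, and the call was lost without CELF6-OE replicate 2 (-0.47), without CELF6-OE replicate 3 (-0.55) or without Control replicate 2 (-0.54). The exact permutation p of the FPKM values was 0.1.

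HLA-DMB (ENSG00000242574, chr6:32934629-32941028, minus strand) had 108, 84 and 41 counts in Control and 75, 45 and 69 in CELF6-OE. Its lowest library was a Control library, Control replicate 3, and the groups overlapped. The log2 fold change was -0.23 ± 0.19 (95% interval -0.61 to 0.15), with an adjusted p of 0.56 in edgeR's quasi-likelihood test and an exact permutation p of 0.8, so no difference was detectable. Without Control replicate 1 the value was 0.08. XXbac-BPG181M17.5 (ENSG00000248993) overlaps both HLA-DMA and HLA-DMB on the same strand. It had 11, 16 and 12 counts in Control and 12, 10 and 3 in CELF6-OE. How reads shared with it were assigned was not tested. BRD2, which overlaps HLA-DMA on the opposite strand, had 4147, 4058 and 4198 counts in Control and 3605, 4017 and 3775 in CELF6-OE. Whether the counting used strand is not given in the sources used here, so the HLA-DMA value is uncertain in this respect.

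RFX5, the DNA-binding subunit of the RFX complex, was the most abundant of the genes. It (ENSG00000143390) lies at chr1:151340640-151347326 on the minus strand. Control libraries had 2539, 2504 and 2358 counts and CELF6-OE libraries 1670, 1634 and 1739, which puts every CELF6-OE library below every Control library with little spread in either group. The level fell 1.4-fold, with a log2 fold change of -0.49 ± 0.0816 (95% interval -0.65 to -0.33). The adjusted p of edgeR's quasi-likelihood test was 1.16e-07 over all genes and 0.000743 over the filtered genes, and it was under 0.05 in 16 of 17 alternatives, with 0.0618 for log2(FPKM + 0.1) as the exception. Because its fold change was under 1.5, RFX5 was not called a DEG. RP11-126K1.6, a gene on the opposite strand that overlaps RFX5, had 69, 69 and 62 counts in Control and 41, 58 and 51 in CELF6-OE, and whether the counting used strand is not given in the sources used here.

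CIITA (ENSG00000179583, chr16:10866222-10943021, plus strand), the master co-activator of the class II genes, was barely detected. It had 5, 7 and 6 counts in Control and 1, 1 and 7 in CELF6-OE, so CELF6-OE replicate 3 was as high as the highest Control library while the other 2 had a single count each. Over the summed counts, 9 against 18, the ratio of CELF6-OE to Control was 0.524, with an exact 95% interval for counting error alone of 0.207 to 1.23. The log2 fold change was -0.90 ± 0.73, with an adjusted p of 0.54 in edgeR's quasi-likelihood test. It was -2.40 without CELF6-OE replicate 3, -0.49 without CELF6-OE replicate 1 and -0.48 without CELF6-OE replicate 2. A change of CIITA was therefore not detectable at this depth. DEXI, which overlaps CIITA on the opposite strand, had 965, 1039 and 1122 counts in Control and 1044, 1135 and 990 in CELF6-OE. How reads shared by the 2 genes were assigned was not tested.

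The chain genes HLA-DRA, HLA-DRB1 and HLA-DPA1 were at the limit of detection. HLA-DRA (ENSG00000204287, chr6:32439878-32445046, plus strand), the invariant alpha chain of HLA-DR, had 4, 0 and 0 counts in Control and 0 in every CELF6-OE library, and no fold change is given because its 4 counts came from 1 library. HLA-DRB1 (ENSG00000196126, chr6:32577902-32589848, minus strand), its most widely expressed beta chain partner, had 2, 0 and 4 counts in Control and 4, 1 and 0 in CELF6-OE. Its ratio over summed counts was 0.873, with a counting interval of 0.211 to 3.43, and its sign changed with the library left out. HLA-DRB genes are highly polymorphic and near-identical to each other, so counts of uniquely located reads are uncertain for them.

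HLA-DPA1 (ENSG00000231389, chr6:33064569-33080775, minus strand), the alpha chain of HLA-DP, had 4, 5 and 5 counts in Control and 1, 0 and 2 in CELF6-OE. The groups did not overlap, but they were separated by 2 counts. Over the sums of 3 and 14 the ratio was 0.224, with a counting interval of 0.0413 to 0.804. The log2 fold change was -2.03 ± 1.00, and the adjusted p of edgeR's quasi-likelihood test was 0.219 with an unadjusted p of 0.0431, so HLA-DPA1 was not called. It was called down-regulated by limma-voom, at -1.99 with an unadjusted p of 0.00774 and an adjusted p of 0.0765.

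**Figure D3:**
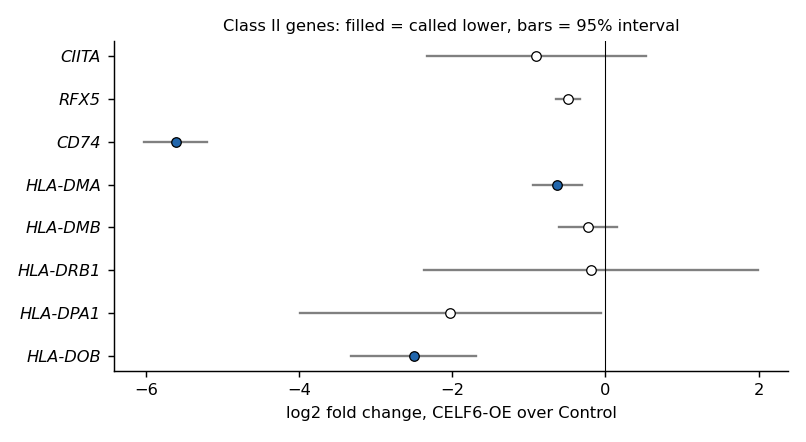
Log2 fold change of CELF6-OE over Control (x axis) with its 95% interval for 7 of the genes and HLA-DOB, from edgeR, where filled points are genes called down-regulated. CD74 lies at -5.61 with a narrow interval, HLA-DMA at -0.63, HLA-DOB at -2.50, and the intervals of CIITA, HLA-DMB and HLA-DRB1 include 0.

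The other class II chain genes were examined from a list of 7, of which 5 had a row. Only HLA-DOB (ENSG00000241106, chr6:32812763-32820466, minus strand), the beta chain of HLA-DO, which inhibits HLA-DM, reached 10 counts. In this list 1 of the 5 genes with a row, HLA-DOB, was called down-regulated and 0 up-regulated, beside 4.06% and 1.08% of all genes. HLA-DOB is a single gene, so its call says nothing about the list. It had 37, 29 and 19 counts in Control and 4, 6 and 4 in CELF6-OE, with no overlap between the groups. The log2 fold change was -2.50 ± 0.41 (95% interval -3.32 to -1.69), a 5.68-fold lower level, with an adjusted p of 6.3e-08 over all genes in edgeR's quasi-likelihood test, 0.0014 over the filtered genes and at most 0.0411 over the alternatives. A readthrough gene that spans HLA-DOB on the same strand, XXbac-BPG246D15.9 (ENSG00000250264), had 4385, 4791 and 4898 counts in Control and 2119, 2306 and 2606 in CELF6-OE, and was also called down-regulated (-0.93 ± 0.0771). How reads shared by HLA-DOB and this gene were assigned was not tested, so the HLA-DOB value is uncertain. HLA-DOA, HLA-DPB1, HLA-DQB2 and HLA-DRB5 had at most 3 counts in any library, and HLA-DQB1 and HLA-DQA2 had no row.

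RFX5 works with partners that bind the promoter module, and 0 of the 6 genes in this list were DEGs, beside 4.06% of all genes called down-regulated and 1.08% up-regulated. RFXANK, the ankyrin-repeat subunit of the RFX complex, had 1386, 1510 and 1581 counts in Control and 1109, 1095 and 1027 in CELF6-OE. Like RFX5 it was lower in every CELF6-OE library, with a log2 fold change of -0.40 ± 0.088 and adjusted p of 0.000108 over all genes and 0.00458 over the filtered genes in edgeR's quasi-likelihood test. The largest adjusted p over its alternatives was 0.0692. The third subunit of the complex, RFXAP, was at 0.28 ± 0.20. The NF-Y subunits NFYA, NFYB and NFYC were at 0.17 ± 0.10, 0.18 ± 0.10 and 0.02 ± 0.0821, and CREB1 was at 0.01 ± 0.10. RFXANK was thus the only gene of this list with an adjusted p under 0.05.

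Genes that act upstream of CIITA transcription formed a list of 8, of which 7 had a row, 3 were called down-regulated and none up-regulated, beside 4.06% and 1.08% of all genes. Of the 7, 0 had fewer than 10 counts in every library, against 12759 of all genes, so these shares are not like for like either. IFNG, the gene of interferon gamma, had no row. IRF1, a transcription factor that binds a CIITA promoter after interferon gamma, had 4053, 4233 and 4383 counts in Control and 1798, 1771 and 2097 in CELF6-OE. Its log2 fold change was -1.09 ± 0.0784, with an adjusted p of 2.01e-05 over the filtered genes in edgeR's quasi-likelihood test. SOCS1, a feedback inhibitor of the JAK kinases, had 117, 117 and 121 counts in Control and 50, 53 and 66 in CELF6-OE (a 2-fold lower level with a log2 SE of 0.18, adjusted p 0.00196 over the filtered genes). IFNGR1, the ligand-binding chain of the interferon gamma receptor, had 3426, 3129 and 2678 counts in Control and 1938, 1860 and 2022 in CELF6-OE (-0.60 ± 0.0794, adjusted p 0.00115 over the filtered genes). All 3 genes had Control libraries that lay above every CELF6-OE library, although IRF1 and SOCS1 have opposite roles in the pathway. IFNGR2 and USF1, both at -0.30 on the log2 scale, had an adjusted p of 0.00605 and 0.00745 over all genes in edgeR's quasi-likelihood test and 0.0143 and 0.0137 over the filtered genes. JAK2, at -0.50, had overlapping groups, and its adjusted p of 0.0422 over all genes was 0.136 over the filtered genes and under 0.05 in 5 of 17 alternatives. JAK1 was at 0.08 ± 0.0759.

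The endosomal proteins that degrade CD74 or handle class II molecules formed a list of 10, all with a row. In this list 3 genes were called down-regulated, none up-regulated, and 6 had an adjusted p under 0.05 and a lower level, beside 4.06%, 1.08% and 7.47% of all genes. In the list 1 gene had fewer than 10 counts in every library, against 12759 of all genes, so the shares are not like for like. CTSS, cathepsin S, the main protease of the late step of CD74 degradation in antigen-presenting cells, had 2742, 2656 and 2298 counts in Control and 492, 537 and 730 in CELF6-OE. It fell 4.16-fold, with a log2 fold change of -2.06 ± 0.0896 and an adjusted p of 1.01e-05 over the filtered genes in edgeR's quasi-likelihood test. CTSL, cathepsin L, was far more abundant, at 323 ± 9.46 FPKM in Control and 197 ± 12.8 in CELF6-OE (SD, n = 3), and its log2 fold change was -0.75 ± 0.0686. LGMN, the asparaginyl endopeptidase legumain, was at 51.2 ± 1.15 FPKM in Control and 30.5 ± 2.58 in CELF6-OE, with a log2 value of -0.78 ± 0.0772. These 2 genes had adjusted p of 3.24e-05 and 4.4e-05 over the filtered genes. CTSB, CTSD and CTSF passed the adjusted p at smaller folds (-0.48, -0.31 and -0.35), also over the filtered genes (0.000594, 0.022 and 0.0125), while CTSV, SPPL2A and MARCH8 had intervals that included 0. MARCH1 had at most 1 count in any library.

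**Figure D4:**
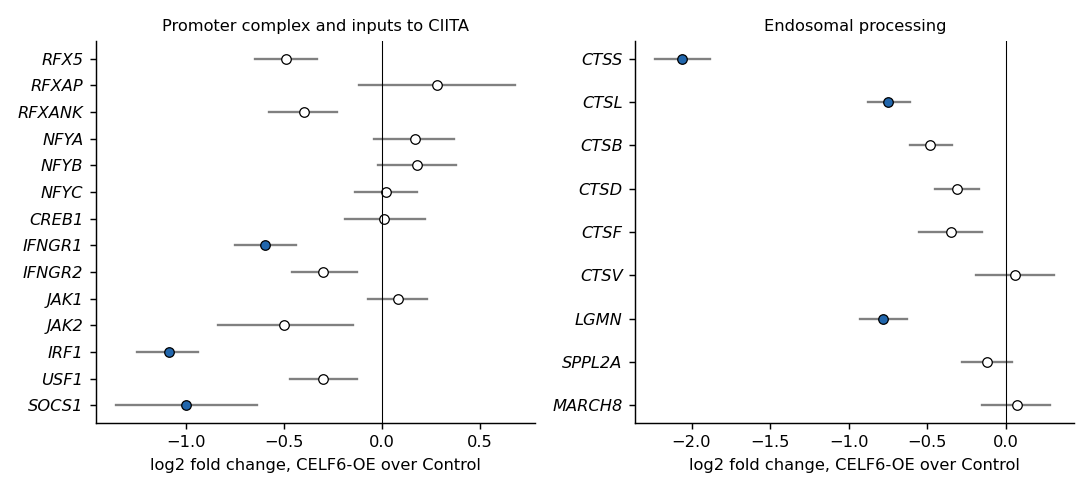
Log2 fold change of CELF6-OE over Control (x axis) with its 95% interval from edgeR, for RFX5, its promoter partners and genes upstream of CIITA (left) and for endosomal processing genes (right), where filled points are genes called down-regulated. CTSS (-2.06), IRF1 (-1.09) and SOCS1 lie farthest to the left, and NFYC, CREB1 and JAK1 lie near 0.

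CD74, HLA-DMA and RFX5 differed in how far processing choices moved them. CD74 kept a log2 fold change between -5.98 and -2.74 over 17 alternatives, the smallest size being that of log2(FPKM + 1), where the pseudocount exceeds the CELF6-OE level. HLA-DMA ranged from -0.89 to -0.44 and crossed the fold threshold. RFX5 ranged from -0.53 to -0.42, always negative and always under a fold of 1.5.

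**Figure D5:**
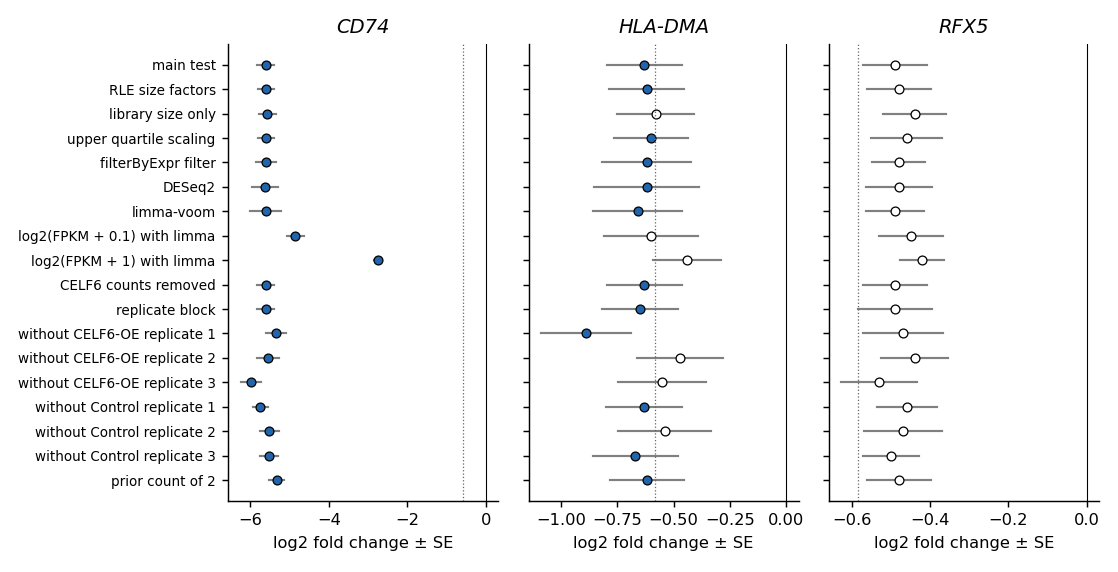
Log2 fold change with its standard error (x axes, on different scales) for CD74, HLA-DMA and RFX5 in the main test and 17 alternatives (y axis), where filled points pass p under 0.01 and the fold of 1.5 marked by the dotted line. CD74 passes in every row, HLA-DMA in 12 of 18 and RFX5 in none.

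Finally, the genes whose profile over the 6 libraries was most like that of CD74 were listed as a description, among 15762 genes with a mean count of at least 10. By Pearson correlation of log2(CPM + 1), the 5 closest were ARHGEF16 (0.9987), HCAR2 (0.9983), WARS (0.9981), RP11-874J12.4 (0.9981) and IFNL1 (0.9980). All the points are the same 6 libraries in 2 groups, and the log2 fold changes of the 5 genes ranged from -0.17 to -3.18. ARHGEF16, a guanine nucleotide exchange factor, differed by -0.17 on the log2 scale, HCAR2, a receptor for nicotinic acid, by -3.13, and WARS, the tryptophanyl-tRNA synthetase, by -0.67. RP11-874J12.4 differed by -0.76 and IFNL1, which encodes interferon lambda 1, by -3.18. HCAR2 had 151 to 201 counts in Control and 17 to 23 in CELF6-OE, and IFNL1 had 558 to 705 and 59 to 70. The 5 genes were picked for their likeness to CD74, so a gap between groups follows from that choice and is not a further result.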

How the data were processed

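Total RNA from 6 A549 cultures was made into stranded poly(A) libraries and sequenced with paired ends. The authors used FASTX-Toolkit for trimming and TopHat2 for alignment to GRCh38, and deposited counts of uniquely located reads per gene, without normalization, and FPKM values rounded to 2 decimals. The tool and annotation used for counting, and whether it used strand, are not given in the sources used here. Gene positions came from GENCODE v44, where 29032 of 29889 identifiers (97.1%) matched on the same chromosome.

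Counts were scaled with TMM and tested with edgeR 4.0.16 (R 4.3.3) across all 29889 genes with at least 1 count (glmQLFit, glmQLFTest, Benjamini-Hochberg), with a prior count of 0.125 for log2 fold changes. In this fit the prior degrees of freedom were infinite, so each gene's variance was set by a trend over all genes. A gene's own spread between libraries did not enter its p, SE or interval in this fit. Each edgeR SE was back-calculated, as the size of the log2 fold change divided by the square root of the test's F statistic. The 95% intervals of log2 fold changes are a normal multiple of this SE, so both are approximate. The 15847 genes kept by filterByExpr gave 7.15, and adjusted p are over all genes unless the text names the filtered genes. FPKM values gave levels and two-sided exact permutation tests (scipy 1.17.1). Intervals of summed counts are exact binomial (95%). Alternatives used other scalings, limma 3.58.1, DESeq2 1.42.0, log2(FPKM + 0.1), log2(FPKM + 1) and each library left out.

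The genes and lists were chosen with earlier results of these data known. Named were all members, the promoter complex and detected class II chains, any other listed gene that was called, and the 5 genes most correlated with CD74. Others are named after their values were seen. A leukocyte marker of the original list is not reported here. The methods state 3 biological replicates per group, and no p-value covers a spread beyond these libraries. Permutation p cannot go below 0.1.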

Additional observations from a re-analysis of the deposited data

How the results depend on the processing

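CD74 kept its call and direction in all 17 alternatives. The 2 genes called down-regulated became 1 (CD74) with library size only, with limma on log2(FPKM + 0.1) or log2(FPKM + 1) and at a fold change of 2, and 1 to 2 with a library left out, the 1 being without CELF6-OE replicate 2, CELF6-OE replicate 3 or Control replicate 2. HLA-DMA was then at -0.58 with library size only, -0.60 and -0.44 with the FPKM pseudocounts of 0.1 and 1, and -0.47 to -0.55 without those libraries. HLA-DPA1 passed with limma-voom (-1.99). Values near 0 changed sign with a library left out: HLA-DRB1 was at 0.08, 0.35 and 0.75 without CELF6-OE replicate 2, CELF6-OE replicate 3 and Control replicate 3, and HLA-DMB at 0.08 without Control replicate 1 (ranges with a library left out -1.71 to 0.75 and -0.52 to 0.08). Of all genes, 1212 were called down-regulated and 324 up-regulated, 386 and 55 with log2(FPKM + 1), 659 and 119 at a fold change of 2, and 921 to 1256 and 209 to 448 with a library left out (209 without CELF6-OE replicate 2). DESeq2 called 169 up-regulated. Why these numbers differ between settings was not tested. Same-numbered libraries of the groups did not deviate together (r = -0.0114, -0.0213 and -0.0722), and a replicate block gave 1180 and 312 DEGs and the same 2 genes. CIITA, not called in any alternative, was at -2.40 without CELF6-OE replicate 3 and at -0.49 and -0.48 without replicates 1 and 2. Depth limits CIITA, HLA-DRA, HLA-DRB1 and HLA-DPA1, where a few counts set each value.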

Other observations

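Genes that repress CIITA transcription or assist that repression were examined as a list of 5, all with a row. Of these, 1 was called down-regulated and 0 up-regulated, beside 4.06% and 1.08% of all genes. By an adjusted p under 0.05 at any fold, 1 was lower and 1 higher, beside 7.47% and 4.36% of all genes. PRDM1, the repressor Blimp-1, was called down-regulated, with 57, 46 and 40 counts in Control and 20, 30 and 25 in CELF6-OE. Its log2 fold change was -0.86 ± 0.25 (SE), with an adjusted p of 0.00886 over all genes in edgeR's quasi-likelihood test, 0.03 over the filtered genes and at most 0.126 over the alternatives. HDAC2, a histone deacetylase, had an adjusted p of 0.0119 by the same test (0.0461 over the filtered genes, under 0.05 in 9 of 17 alternatives) at a log2 fold change of 0.26 ± 0.0794, under the fold threshold. EZH2, HDAC1 and SIN3A were at 0.13, 0.10 and 0.02, with intervals that included 0.

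CD74 at the cell surface binds the cytokine MIF and its homologue DDT and signals with partner receptors, and 0 of these 6 genes were DEGs, beside 4.06% of all genes called down-regulated and 1.08% up-regulated. MIF was at 63.8 ± 3.27 FPKM (SD, n = 3) in CELF6-OE and 64 ± 7.23 in Control, with a log2 difference of -0.04 ± 0.0802 (95% interval -0.20 to 0.11). DDT was at -0.07 ± 0.0802 (95% interval -0.23 to 0.08). CD44, the signalling partner of CD74, was at -0.20, with an adjusted p of 0.0388 over all genes in edgeR's quasi-likelihood test and 0.0391 over the filtered genes, under 0.05 in 7 of 17 alternatives. ACKR3 was at -0.57, and its adjusted p of 0.0492 over all genes was 0.0573 over the filtered genes and under 0.05 in 2 of 17 alternatives. CXCR4 was at 0.60 ± 0.37, with 10 to 15 counts in Control and 8 to 26 in CELF6-OE, and CXCR2 had at most 2 counts in any library.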
